A study of Mus musculus with 8 samples.

Results

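The homeobox transcription factor genes of the primitive streak, the organizer and the anterior endoderm were followed in WT and CTCF-K20R cells. The members were Lhx1, Gsc, Mixl1, Evx1, Hhex, Otx1 and Otx2, taken as the rows of the deposited gene table that carry these names, and they were 7 of 18094 genes. RNA-seq had been performed on mESCs before differentiation (day 0) and on EBs on day 4, with 2 libraries for each genotype and day. All libraries came from E14Tg2A, a male mouse embryonic stem cell line that was kept on mitomycin C-inactivated mouse fibroblasts with LIF and the 2i inhibitors. EBs, the cell aggregates in which differentiation begins, were grown in hanging drops in serum medium lacking LIF. In the CTCF-K20R cells CRISPR/Cas9 had changed lysine 20 of the architectural protein CTCF to arginine, and the WT cells carried the unchanged protein. The sources used here do not state how many targeted colonies stand behind the CTCF-K20R libraries, so a difference between genotypes and a difference between colonies cannot be told apart.

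The primitive streak is the region of the gastrulating embryo through which cells pass to become mesoderm and endoderm, and the organizer at its anterior end patterns the body axis. Its cells are specified by Nodal and Wnt signals and switch on homeobox genes in an ordered way. Mixl1 and Evx1 mark the streak and nascent mesendoderm, Gsc and Lhx1 mark the organizer and its derivatives, and Hhex and Otx2 mark anterior endoderm. Otx2 is also expressed earlier, in the epiblast and the anterior neural ectoderm, and Otx1 later in the anterior brain.

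Levels are given as normalized counts, of which a library held 19412659 to 21311513, and 3 reads corresponded to 2.44 to 3.44 normalized counts, below which a level was treated as not detectable. Within each WT pair the difference was below the sampling noise, and the pair was counted as 1 sample, so the error in every test came from the CTCF-K20R pairs and measured only the spread between those samples. Fold changes were tested with limma on log2(normalized count + 1) with Benjamini-Hochberg adjustment over 15767 genes, and a gene was called when its adjusted p was under 0.05 and its log2 fold change was past 1 in size. Intervals and detection limits cover counting or replicate error only. In RNA from whole EBs, fewer cells of a type and less RNA per cell cannot be told apart.

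Sequences just upstream of the starts are shown for the 2 members that define the organizer, Lhx1 and Gsc, and for Otx2, the member that behaved differently. RefSeq (GRCm38.p6) start sites were available for 5 of the 7 members, Lhx1, Gsc, Evx1, Hhex and Otx2. Each line holds the 250 bases before 1 start, 5′ to 3′, with motif matches in capitals. The Lhx1 window is chr11:84525535-84525784 and the Gsc window is chr12:104473237-104473486. The Otx2 window, before the third of its 4 starts, is chr14:48665110-48665359, and all are on the minus strand. RefSeq starts can differ from the gene spans given below, which are those of GENCODE. The Gsc window overlaps its GENCODE span, which ends at 104473330, and the Otx2 window lies inside its span, which ends at 48673819.
Lhx1: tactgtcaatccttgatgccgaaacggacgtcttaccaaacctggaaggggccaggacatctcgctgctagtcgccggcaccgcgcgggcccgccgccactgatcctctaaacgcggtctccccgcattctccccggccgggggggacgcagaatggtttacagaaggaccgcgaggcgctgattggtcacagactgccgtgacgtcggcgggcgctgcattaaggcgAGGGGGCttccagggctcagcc
Gsc: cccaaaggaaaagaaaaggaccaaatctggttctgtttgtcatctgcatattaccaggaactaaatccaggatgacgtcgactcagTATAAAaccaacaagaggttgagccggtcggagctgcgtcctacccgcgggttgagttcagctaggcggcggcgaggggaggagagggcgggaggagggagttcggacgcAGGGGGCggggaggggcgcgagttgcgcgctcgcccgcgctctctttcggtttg
Otx2: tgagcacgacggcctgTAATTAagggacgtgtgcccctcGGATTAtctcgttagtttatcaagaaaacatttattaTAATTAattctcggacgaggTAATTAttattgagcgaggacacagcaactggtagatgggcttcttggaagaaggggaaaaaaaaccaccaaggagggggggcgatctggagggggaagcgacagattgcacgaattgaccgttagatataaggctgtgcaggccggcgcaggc
The capitals mark AGGGGGC, the core of the CTCF motif, in Lhx1 and Gsc, the TATA box letters TATAAA in Gsc, and TAATTA, a homeodomain core that reads the same on both strands, in Otx2. Otx2 also held TAATCC, the site bound by OTX and GSC proteins, on the opposite strand, so that it reads GGATTA above. This window was shown because it held the most matches of the 4 Otx2 windows, of which the first held TATAAA and TAATTA and the other 2 held none of the motifs. The AGGGGGC match lay 22 bases before the RefSeq start of Lhx1 and 54 bases before that of Gsc, the latter inside the GENCODE span. Of 32851 RefSeq promoter windows of this length, 9.43% held it on either strand. TAATCC was present in 6.25% of the windows, TAATTA in 4.84% and TATAAA in 12.4%. The FOXH1 site AATNCACA (3.18% of windows) and the TCF/LEF core CTTTGA (13.8%) were searched for as well and matched no window of these 5 members. The Evx1 and Hhex windows held none of the 6 motifs, which says only that these letters were not in those bases, and no binding was measured here.

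Of the 7 members, 6 were downregulated in CTCF-K20R EBs on day 4, against 8.65% of all genes tested, and Otx2 was not called. The median log2 fold change of the 7 was -5.32, against 0.01 over all genes tested. The levels were between 8.69 and 2323 times lower in CTCF-K20R EBs for the 6 genes called.

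**Figure D1:**
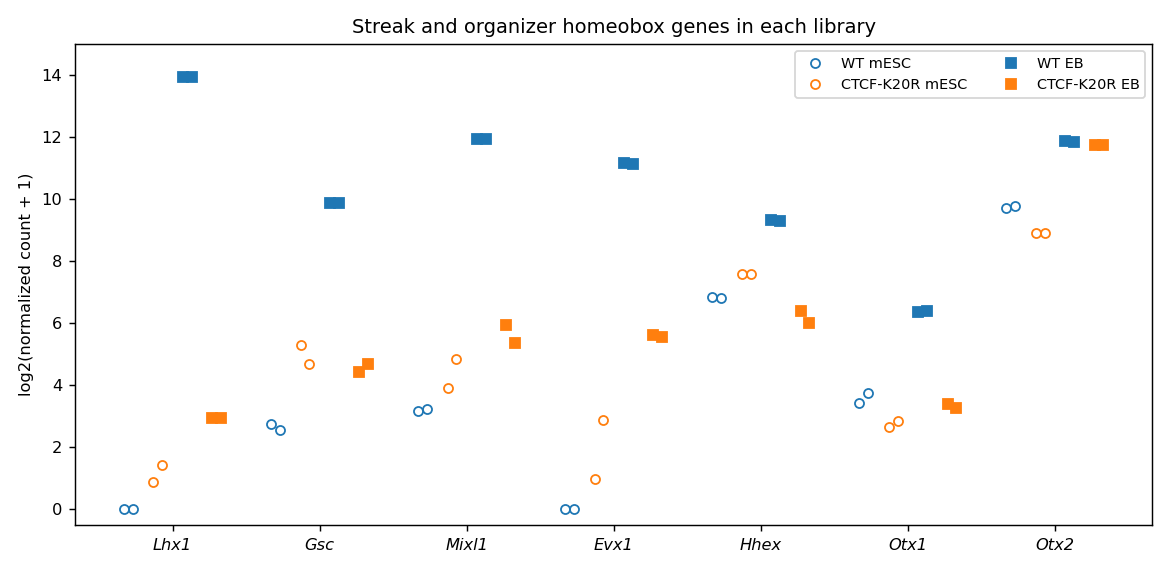
Level of each member in every library, as log2(normalized count + 1) on the vertical axis. Blue symbols are WT and orange symbols CTCF-K20R, open circles are mESCs on day 0 and filled squares EBs on day 4. The filled orange squares lie far below the filled blue ones for 6 genes and beside them for Otx2.

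The streak genes come first. Mixl1 (ENSMUSG00000026497, chromosome 1 from 180693043 to 180697034, minus strand), a paired-type homeobox gene required for mesendoderm morphogenesis, had 7.92 and 8.51 normalized counts in WT mESCs and 14.1 and 27.6 in CTCF-K20R mESCs. In EBs it had 3898 and 3889 in the WT libraries and 60.6 and 40.3 in the CTCF-K20R libraries. Both WT EB libraries thus stood far above every other library. The CTCF-K20R EB libraries stood above all mESC libraries, with a mean 2.4 times that of CTCF-K20R mESCs. The level in CTCF-K20R EBs was 1.30% of that in WT EBs, with a log2 fold change of -6.27 (SE 0.483, adjusted p = 0.0004892).

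Evx1 (ENSMUSG00000005503, chromosome 6 from 52313498 to 52318378, plus strand) encodes an even-skipped-related factor of the posterior streak. It was at 0 in both WT mESC libraries and had 0.990 and 6.40 normalized counts in the CTCF-K20R mESC libraries. In EBs it had 2290 and 2267 in WT and 48.4 and 46.1 in CTCF-K20R. The mESC libraries were near the detection limit in both genotypes, while in EBs the pairs were tight and far apart. The log2 fold change on day 4 was -5.56 (SE 0.798, adjusted p = 0.003965), and the level was 48.2 times lower. The call for Evx1 was lost without CTCF-K20R EB replicate 1 (adjusted p = 0.07061) or without CTCF-K20R EB replicate 2 (adjusted p = 0.07161), with log2 fold changes of -5.60 and -5.53. The spread of this gene came mainly from its CTCF-K20R mESC pair.

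Evx1 is overlapped on the opposite strand by the antisense RNA gene Evx1os, named 5730457N03Rik in the deposited table, whose start lies 1.3 kb inside Evx1. Evx1os reached 979.4 normalized counts in WT EBs against 15.8 and 9.06 in CTCF-K20R EBs, and it was lower by 6.24 on the log2 scale (adjusted p = 0.0008785). The use of strand in the counting is not given in the sources used here, so reads of Evx1 and of its antisense partner may not be fully separated. In the Hoxa cluster, upstream of Evx1, most genes were too low to be tested. Hoxa3, 100.2 kb upstream, had a mean of 107.5 in WT EBs and 0 in both CTCF-K20R EB libraries, which is at least 31.3-fold lower (adjusted p = 0.0006614).

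The organizer genes followed. Lhx1 (ENSMUSG00000018698, chromosome 11 from 84518284 to 84525535, minus strand) encodes a LIM-homeodomain factor needed for head formation in the mouse. It was at 0 in both WT mESC libraries and at 0.842 and 1.71 in the CTCF-K20R mESC libraries, all below the detection limit. In EBs it reached 15499 and 15710 normalized counts in WT, and 6.65 and 6.78 in CTCF-K20R. Only the WT EB libraries held substantial Lhx1 RNA, and the CTCF-K20R EB libraries lay just above the detection limit of 3.44. CTCF-K20R EBs had 0.0430% of the WT level, a log2 fold change of -10.98 (SE 0.485, 95% confidence interval -12.20 to -9.77, adjusted p = 9.652e-05). With the pseudocount of 1, this was the lowest log2 fold change among the 15767 genes tested on day 4, for a gene that ranked 113 by level in WT EBs. The rank depends on the pseudocount. Msgn1, for example, had a mean of 882.6 in WT EBs and 0 in both CTCF-K20R EB libraries, so its fold change is only bounded.

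Lhx1os, a divergent RNA gene whose start lies 0.1 kb from that of Lhx1, was lower in CTCF-K20R EBs as well. Lhx1os was at 258.9 normalized counts in WT EBs and at 4.30 and 2.61 in the mutant EB libraries (log2 fold change -5.89, adjusted p = 0.00252). Aatf, 12.0 kb downstream, had 1331 in WT EBs and 1003 and 963.1 in CTCF-K20R EBs. Its log2 fold change of -0.44 (adjusted p = 0.006808) was short of the fold minimum, so the difference next to Lhx1 was large at the divergent pair and small at the next gene tested.

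Gsc (ENSMUSG00000021095, chromosome 12 from 104471209 to 104473330, minus strand), the homeobox gene goosecoid and a widely used marker of the organizer, had 5.79 and 4.84 normalized counts in WT mESCs. It had 38.7 and 24.8 in CTCF-K20R mESCs, 931.5 and 935.7 in WT EBs and 20.5 and 24.5 in CTCF-K20R EBs. CTCF-K20R cells were therefore above WT cells on day 0 and below them on day 4. On day 4 the log2 fold change was -5.32 (SE 0.399, adjusted p = 0.000449), or 41.5 times lower. On day 0 it was 2.34 (SE 0.399, adjusted p = 0.01875), or 5.97 times higher. No gene within 200 kb of the Gsc start was high enough to be tested.

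Hhex and Otx1 changed less. Hhex (ENSMUSG00000024986, chromosome 19 from 37434810 to 37440731, plus strand) encodes a repressor active in anterior visceral and definitive endoderm and in blood progenitors. It was already detected in mESCs, at 114.1 and 110.2 normalized counts in WT and 193.3 and 192.0 in CTCF-K20R. In EBs it had 640.2 and 629.4 in WT and 83.2 and 62.9 in CTCF-K20R. CTCF-K20R EBs were thus the lowest of the 4 groups, although CTCF-K20R mESCs had been above WT mESCs. The day 4 log2 fold change was -3.12 (SE 0.226, adjusted p = 0.0004076), and that of day 0 was 0.77 (adjusted p = 0.07823). Of the 4 genes tested within 200 kb of Hhex, 0 were called, against 8.65% of all genes called lower and 6.89% higher. Ide, 97.0 kb upstream, was higher by 0.85 on the log2 scale (adjusted p = 0.0004418), below the fold minimum. Gm38345, whose start lies 0.2 kb from that of Hhex, was at 54.8 normalized counts in WT EBs against 6.94 and 16.4 in CTCF-K20R EBs (log2 fold change -2.25, adjusted p = 0.0703). Beyond the window, and chosen after their values were seen, the retinoic acid-degrading enzyme genes Cyp26c1 (250.8 kb away, -5.09, adjusted p = 0.009725) and Cyp26a1 (263.0 kb away, -9.52, adjusted p = 0.0005232) were called lower.

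Otx1 (ENSMUSG00000005917, chromosome 11 from 21994764 to 22002897, minus strand), the paralog of Otx2, had the lowest level of the members in WT EBs. It had 9.87 and 12.4 normalized counts in WT mESCs, 5.25 and 6.22 in CTCF-K20R mESCs, 81.2 and 83.7 in WT EBs and 9.53 and 8.72 in CTCF-K20R EBs. The WT EB libraries alone stood apart. The log2 fold change on day 4 was -3.04 (SE 0.448, adjusted p = 0.004306), and the level was 9.03 times lower.

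**Figure D2:**
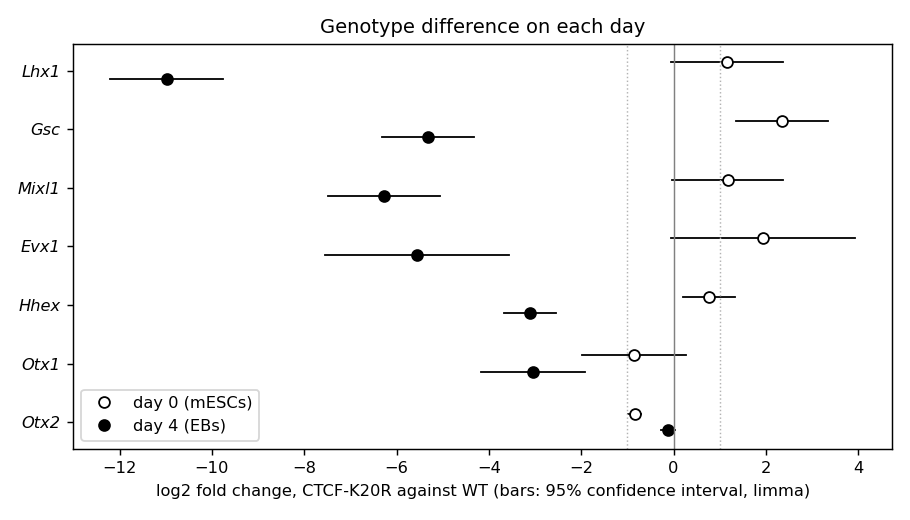
Log2 fold change of CTCF-K20R against WT for each member (horizontal axis), with 95% confidence intervals from limma as bars. Open circles are day 0, filled circles day 4 and dotted lines mark 2-fold. On day 4 Lhx1 lies at -10.98 and Otx2 at -0.12, and on day 0 Gsc lies highest at 2.34.

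Otx2 (ENSMUSG00000021848, chromosome 14 from 48657677 to 48673819, minus strand) went another way. It had 847.6 and 873.5 normalized counts in WT mESCs and 481.2 and 479.6 in CTCF-K20R mESCs. In EBs it had a mean of 3709 in WT and 3402 and 3436 in CTCF-K20R. The genotypes were well apart in mESCs and close in EBs. The log2 fold change on day 4 was -0.12 (SE 0.0577, 95% confidence interval -0.26 to 0.03, adjusted p = 0.1612), so a reduction of the size seen in the other 6 genes lay outside its interval. On day 0 it was -0.84 (SE 0.0577, adjusted p = 0.001614), which passed the adjusted p and missed the fold minimum. The adjusted p did not pass without CTCF-K20R EB replicate 1 (0.05886) or CTCF-K20R EB replicate 2 (0.05882), with no mean-variance trend (0.05311) or with only the day 0 libraries (0.05574), at a log2 fold change of -0.84 in each.

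The genes around Otx2 had a shared shift. Within 5 Mb of its start 57 other genes were tested, and their median log2 fold change was -0.88 on day 0 and -0.86 on day 4. Of these, 55 were below 0 on day 0 and 51 on day 4, where 19 were called lower and 1 higher. Over all genes tested on day 4, 8.65% were called lower and 6.89% higher. Otx2 differed from the median of these genes by 0.04 on the log2 scale on day 0 and by 0.74 on day 4, when 7 of the 57 had a higher log2 fold change than Otx2. Around the other 6 members the median lay between -0.08 and 0.01 on day 0 and between -0.11 and 0.09 on day 4. The part of the regional shift in the values of Otx2 was not tested, and neighbouring genes are not independent replicates.

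**Figure D3:**
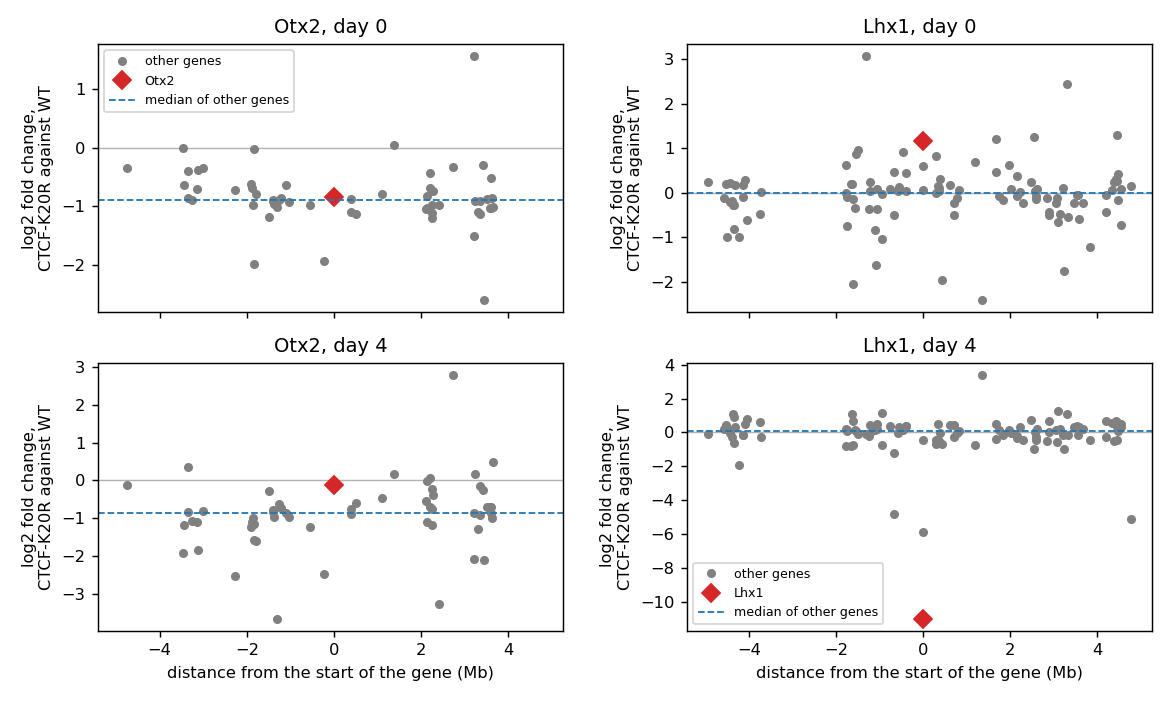
Log2 fold change of CTCF-K20R against WT (vertical axis) for the genes tested within 5 Mb of Otx2 (left) and Lhx1 (right), by distance from the start of the gene in Mb, on day 0 (top) and day 4 (bottom). Grey points are the other genes, the dashed line their median and the red diamond the named gene. Of the 57 genes around Otx2, 55 lie below 0 on day 0 and 51 on day 4. Lhx1 lies at -10.98 on day 4 among genes with a median of 0.07.

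Near Mixl1, 7 genes within 200 kb were tested and 0 were called, against 8.65% of all genes called lower and 6.89% higher. Parp1, 128.1 kb away, was higher by 0.71 on the log2 scale (adjusted p = 9.86e-05). Lefty2, 196.1 kb away and an inhibitor of Nodal, was lower with a log2 fold change of -0.60 (adjusted p = 0.0006513). Beyond this window, and chosen after its value was seen, Lefty1, 0.238 Mb away, was called higher (1.93, adjusted p = 7.437e-05).

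On day 0 Gsc was the only member called higher, against 1.19% of all genes, and 0 members were called lower, against 2.60%. Of all genes called on day 0, 31.4% were higher, and with quantile normalization 41.9%. The call for Gsc was lost without CTCF-K20R mESC replicate 1 (log2 fold change 2.03, adjusted p = 0.07279), where Evx1 was called instead (2.89, adjusted p = 0.04286). It was also lost without CTCF-K20R EB replicate 1 (adjusted p = 0.1015) or CTCF-K20R EB replicate 2 (adjusted p = 0.1017), although these do not enter its day 0 level. The day 0 log2 fold changes of Lhx1 (1.16), Mixl1 (1.17) and Evx1 (1.94) had adjusted p of 0.172, 0.1685 and 0.1678, and that of Otx1 (-0.85) had 0.2611. The sign on day 0 was positive for Lhx1, Gsc, Mixl1, Evx1 and Hhex and negative for Otx1 and Otx2, and only Gsc was called. Lhx1 was under the detection limit in all mESC libraries, so its sign on day 0 cannot be read.

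The change from day 0 to day 4 separated the genotypes further. In WT cells 1 averaged sample stood against 1 with no replicate check of its own, so values are given without a test. There all 7 members were more than 2-fold higher in EBs than in mESCs, against 18.9% of all genes. The increase was at least 4586-fold for Lhx1 and at least 669.7-fold for Evx1, taken against the detection limit, and log2 increases were 8.72 for Mixl1, 7.21 for Gsc, 2.78 for Otx1, 2.49 for Hhex and 2.11 for Otx2. In CTCF-K20R cells 4 members rose between the days, against 14.5% of all genes. They were Otx2 (log2 fold change 2.83, adjusted p = 2.285e-06), Evx1 (3.65, adjusted p = 0.004985), Lhx1 (1.79, adjusted p = 0.01133) and Mixl1 (1.28, adjusted p = 0.03572). The value of Lhx1 depends on the pseudocount, since its mESC levels were under the detection limit. Hhex fell by 1.40 on the log2 scale in CTCF-K20R cells (adjusted p = 0.001563), against 11.6% of all genes called lower. Gsc (-0.45, adjusted p = 0.2807) and Otx1 (0.59, adjusted p = 0.2167) did not pass the test. Without CTCF-K20R EB replicate 1, and likewise without CTCF-K20R EB replicate 2, the number of members called for this change went from 5 to 2.

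The genotype difference itself differed between the days for 5 members past the fold minimum, all lower on day 4, against 6.04% of all genes. The interaction was -12.14 on the log2 scale for Lhx1 (adjusted p = 0.0004283), -7.66 for Gsc (adjusted p = 0.0009014), -7.50 for Evx1 (adjusted p = 0.007899), -7.44 for Mixl1 (adjusted p = 0.001653) and -3.89 for Hhex (adjusted p = 0.001206). The fitted values of Lhx1 and Evx1 depend on the pseudocount, because WT mESCs were at 0. The interaction of Evx1 lost its call without CTCF-K20R EB replicate 1 (adjusted p = 0.09087) or CTCF-K20R EB replicate 2 (adjusted p = 0.09247), and with no mean-variance trend (adjusted p = 0.05781). For Otx1 it was -2.19 with an adjusted p of 0.05515, which passed without WT mESC replicate 2 (-2.35, adjusted p = 0.04624). It also passed with all 8 libraries (adjusted p = 0.0007629), with the replicate block (adjusted p = 0.002014), and with a pseudocount of 5, quantile normalization, scaling to the same total or no mean-variance trend. For Otx2 it had the opposite sign, 0.72 (adjusted p = 0.003148). By adjusted p alone 6 members passed, against 26.6% of all genes.

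The order of the members also differed. Per kb of exon, the WT EB level was 3832 normalized counts for Lhx1, 1697 for Mixl1, 878.7 for Otx2, 792 for Evx1, 736.3 for Gsc, 125.6 for Hhex and 15.2 for Otx1, with no replicate error of their own. In CTCF-K20R EBs the level per kb was 810 ± 5.70 for Otx2 (SD, n = 2), far above the rest. Then came Mixl1 with 22.0 ± 6.27 normalized counts per kb, Gsc with 17.7 ± 2.26, Evx1 with 16.4 ± 0.570 and Hhex with 14.5 ± 2.83, and neighbours among these 4 lay within their spread. Otx1 (1.68 ± 0.105) and Lhx1 (1.65 ± 0.0214) came last and did not differ beyond their spread. Lhx1 was thus the first member in WT EBs and, with Otx1, the lowest in CTCF-K20R EBs.

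The other genes of the pathway were read from lists. Of 15 organizer and node genes outside the homeobox family, 12 were called lower in CTCF-K20R EBs, against 8.65% of all genes tested. In this list 1 gene, Lefty1, was called higher, against 6.89%, and the median log2 fold change was -4.72. Cer1, a secreted inhibitor of Nodal, BMP and Wnt made by anterior endoderm, went from 7889 normalized counts in WT EBs to 8.01 and 8.76 in CTCF-K20R EBs (log2 fold change -9.72, adjusted p = 0.0002308). Cyp26a1, which degrades retinoic acid, had 9369.9 in WT EBs and 6.95 and 19.6 in CTCF-K20R EBs (-9.52, adjusted p = 0.0005232). The Wnt inhibitors Dkk1 (-6.27, adjusted p = 0.0005503) and Frzb (-6.17, adjusted p = 0.0004272) were lower as well. Foxa2, a forkhead factor of node and endoderm, had 2243 in WT EBs and 74.0 and 73.3 in CTCF-K20R EBs (-4.91, adjusted p = 0.03999).

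Of 16 Nodal pathway genes tested, 3 were called lower, against 8.65% of all genes, and 2 higher, against 6.89%, with a median log2 fold change of -0.24 against 0.01 over all genes, and Acvr1c was not analysed here. The ligand Nodal rose from 766.8 normalized counts in WT EBs to 1899 and 1942 in CTCF-K20R EBs (log2 fold change 1.32, adjusted p = 0.0001023). Gdf3, a related ligand, had 46.7 in WT EBs and 467.2 and 482.3 in CTCF-K20R EBs (3.32, adjusted p = 2.756e-05). With means of 2019 in WT mESCs and 1432 in CTCF-K20R mESCs, Gdf3 was lower in EBs than in mESCs in both genotypes. Tdgf1, a co-receptor of Nodal, had 23688 in WT EBs and 11856 and 11495 in CTCF-K20R EBs. It was called lower, just past the fold minimum (-1.02, adjusted p = 4.165e-05). Members of the nuclear step did not move together. Foxh1, through which Smad proteins bind DNA, had 3845 in WT EBs and 1513 and 1470 in CTCF-K20R EBs (-1.37, adjusted p = 0.0001524), and Eomes, the T-box factor of the anterior streak, had 9898 and then 1845 and 1777 (-2.45, adjusted p = 3.013e-05). Smad2 (-0.56, adjusted p = 0.0308), Smad3 (-0.67, adjusted p = 0.03814) and Smad4 (0.22, adjusted p = 0.02363), the signal carriers, and Skil (0.81, adjusted p = 0.0001572), a repressor of the Smad proteins, missed the fold minimum.

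Of 13 streak and canonical Wnt genes, 10 were called lower, against 8.65% of all genes, and 1 higher, against 6.89%, with a median of -2.94. T, the T-box gene brachyury of the streak, went from 20799.9 normalized counts in WT EBs to 520.3 and 514.6 in CTCF-K20R EBs (log2 fold change -5.33, adjusted p = 2.526e-05), and it was lower on day 0 too (-1.53, adjusted p = 0.002913). The presomitic gene Msgn1 was at least 256.6-fold lower and the early mesoderm gene Mesp1 at least 492.7-fold lower. The Wnt target Sp5 had a log2 fold change of -5.05 (adjusted p = 0.000242).

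Of 10 LIM-domain cofactors and relatives 9 were tested, and of these 2 were called lower, against 8.65% of all genes, with a median of -0.52. Ldb1, the adaptor that LIM-homeodomain proteins such as Lhx1 bind, went from 2899.9 normalized counts in WT EBs to 2042 and 1999 in CTCF-K20R EBs (log2 fold change -0.52, adjusted p = 0.0007774), short of the fold minimum. Ssbp3, a partner of Ldb1, had a log2 fold change of -0.18 (adjusted p = 0.04079). Those called were Lmo2 (-3.44, SE 1.02, adjusted p = 0.04357) and Lmo1 (-2.93, adjusted p = 0.008732), LIM-only proteins that bind Ldb1. On day 0 Lmo2 had a log2 fold change of -3.11 (adjusted p = 0.1024). Of 34 other homeobox genes of the same classes 16 were tested, with a median of -1.38. Of these 7 were called lower, against 8.65% of all genes, and 0 higher, against 6.89%. Some of the genes tested passed the filter on the mean only through WT EBs. Examples are Noto and Vax1, with means of 132.5 and 94.1 in WT EBs and 0 in WT mESCs. The number called lower and the median of this list therefore lean towards lower values. The notochord gene Noto was at least 38.5-fold lower and Vax1, a gene of the ventral forebrain and eye, at least 27.4-fold lower. Isl1, a LIM-homeobox gene of cardiac and neural progenitors, had 360.8 in WT EBs and 28.1 and 11.3 in CTCF-K20R EBs (-4.26, adjusted p = 0.003911), and Alx4 had a log2 fold change of -3.58 (adjusted p = 0.02852).

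**Figure D4:**
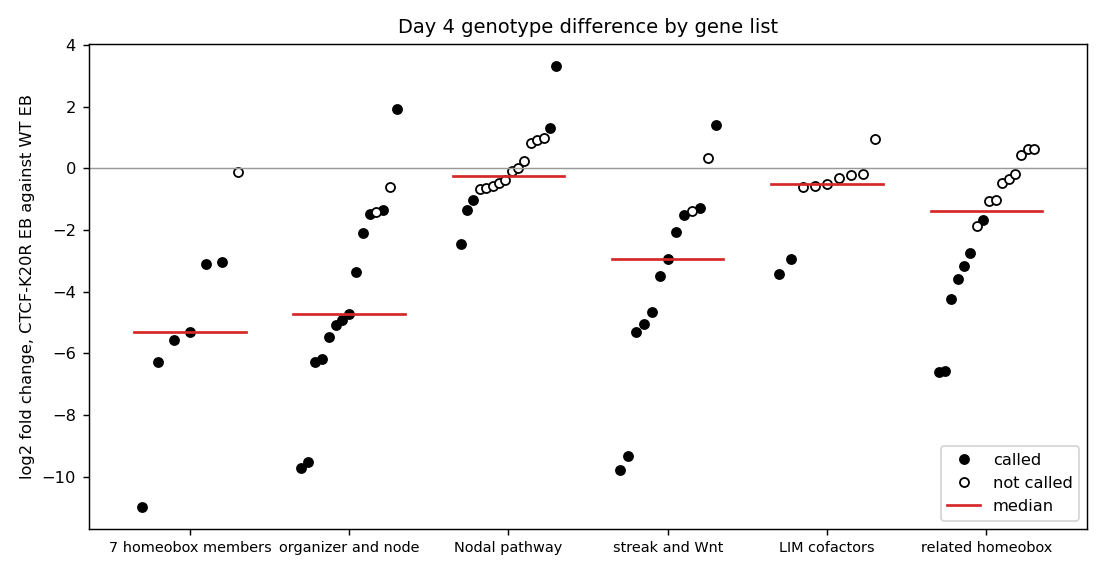
Log2 fold change of CTCF-K20R EBs against WT EBs (vertical axis) for the 7 members and the tested genes of the pathway lists. Filled circles were called, open circles were not, and red lines are medians. The members and the organizer list have medians of -5.32 and -4.72, and the Nodal pathway one of -0.24.

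Markers of other cell types differed in their direction. Their numbers called on day 4 stand against 8.65% of all genes tested called lower and 6.89% called higher. All 5 definitive endoderm markers, Sox17, Gata6, Cxcr4, Foxa1 and Foxa2 (the last also in the organizer list), were called lower on day 4, and their summed level was 7675 to 7725 normalized counts in WT EBs and 140.8 to 145.4 in CTCF-K20R EBs. The summed level of 8 pluripotency markers was 16116 to 16269 in WT EBs and 31639 to 32242 in CTCF-K20R EBs, with 4 called higher and 2 lower. On day 0 this sum was 115190 to 115210 in WT and 114940 to 116270 in CTCF-K20R. Markers of the visceral endoderm, where Hhex and Otx2 are also known to be active, summed to 140.8 to 143.0 in WT EBs and 119.4 to 167.2 in CTCF-K20R EBs, with Apoa1 and Ttr at or under the detection limit in every EB library and 1 of 5 tested called higher. Anterior neural markers summed to 246.1 to 248.7 in WT EBs and 210.9 to 212.1 in CTCF-K20R EBs, with 2 of 6 tested called higher and 2 lower. Fibroblast markers, which feeder cells would carry, summed to 500.6 to 510.9 in WT mESCs and 150.4 to 160.2 in CTCF-K20R mESCs, and to 487.3 to 505.2 in WT EBs and 679.7 to 745.3 in CTCF-K20R EBs, where 2 of 5 tested were called higher and 1 lower. Thy1 carried most of these sums in every group but WT EBs. Without it, a choice made after seeing the data, they were 42.0 to 45.5 in WT mESCs and 47.0 to 56.0 in CTCF-K20R mESCs, and 265.7 to 279.4 in WT EBs and 154.2 to 165.5 in CTCF-K20R EBs. The part of these cell types in the levels of the members was not tested.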

How the data were processed

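RNA-seq of 4 groups (WT and CTCF-K20R, mESCs and EBs) was analysed, with 2 libraries each. Per the labels and the methods of the study, the authors trimmed reads with Trim Galore, quantified them on mm10 transcripts with Salmon, summed transcripts to genes and normalized with DESeq2. The deposited unit is a signal, the authors' normalized counts, in which every gene has its own factor in every library. Whole reads were therefore not recoverable, and values were tested on a log scale instead of as counts. The annotation release and the use of strand are not given in the sources used here. Every value column was matched to a sample by its name.

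Testing covered the 15767 genes whose mean over the 8 libraries reached 10, on log2(value + 1), a scale that understates changes of low genes. A gene high in WT EBs alone could pass this filter, so the numbers called in the lists lean towards lower. limma 3.58.1 in R 4.3.3 fitted 1 mean per group (mean-variance trend, two-sided, Benjamini-Hochberg). Squared differences within pairs were 0.314 and 0.278 times the sampling noise for WT mESCs and EBs, and 4.00 and 4.36 times for CTCF-K20R, so WT pairs were averaged and 6 samples entered the fit. The study describes its RNA-seq experiments as independent. The residual degrees of freedom were 2 and the prior degrees of freedom 3.51. The step of 1 read was estimated from low values, and the floor of 3 reads gives the lower bounds.

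Positions and exon lengths came from GENCODE vM21 (GRCm38), which held 17948 of 18094 identifiers. The code was tested on simulated data. Replicate numbers did not pair the samples, with correlations of deviations between -0.04 and 0.001. Alternatives were the use of all 8 libraries, a replicate block, pseudocounts, the filter, scalings, the trend, single days, a stricter threshold and leaving out each library. Members, lists and tests were chosen with earlier results of these data known. The genes named were the members, the 3 genes with the most similar profile over the 6 samples for each member called on day 4, from each of 5 pathway lists every gene called on day 4 or the 4 with the largest change, Nodal, Foxh1, Eomes, Foxa2, T, Cer1, Ldb1 and Ssbp3, and tested genes within 200 kb of a member. Some genes that meet this rule are not reported here. Lefty1, Cyp26c1, Tdgf1, Smad2, Smad3, Smad4, Skil and the single markers were named after their values were seen. Plots were drawn with Python 3.11.15 and matplotlib 3.10.9.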

Additional observations from a re-analysis of the deposited data

Results flagged for a closer look

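The groups held 2 libraries each, too few to look for a library that stands apart. The genotype effect differed between day 0 and day 4 for 6 of the 7 members, by the interaction term of limma with Benjamini-Hochberg adjustment and no fold minimum, against 26.6% of all genes. The difference of log2 fold changes (day 4 minus day 0) was -12.14 for Lhx1, -7.66 for Gsc, -7.50 for Evx1, -7.44 for Mixl1 and -3.89 for Hhex. For Otx2 it was 0.72, since the log2 fold change was -0.84 on day 0 and -0.12 on day 4.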

How the results depend on the processing

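The day 4 log2 fold changes of the 7 members kept their direction in all alternatives tried, and 117 of 119 values kept their side of the threshold. The exceptions were those of Evx1 without either CTCF-K20R EB library. No value reversed. The number of members called on day 4 was 6, and 5 to 6 when libraries were left out. On day 0, 1 member was called. All 8 libraries as separate samples gave 4, the same 8 with the replicate block 4 and a pseudocount of 0.1 gave 3, while no filter, no mean-variance trend, only the libraries of the day, and an adjusted p under 0.01 each gave 0, and leaving out libraries 0 to 1. For the difference between the days 5 members were called, and 4 to 6 in the alternatives. For CTCF-K20R day 4 against day 0 the 5 members became 3 with quantile normalization, 3 at an adjusted p under 0.01 and 2 to 5 without single libraries.

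Over all genes, 2451 were called on day 4, and 1590 to 2474 without single libraries. On day 0 598 were called, against 1348 with all 8 libraries, 1344 with the replicate block, 56 without the trend, 146 with only the libraries of the day, 234 at an adjusted p under 0.01 and 0 to 615 without single libraries, with 0 without either CTCF-K20R EB library. For the difference between the days 2031 genes were called, 3340 with all 8 libraries, 3325 with the replicate block and 885 to 2059 without single libraries, the lowest without CTCF-K20R EB replicate 2. The numbers are shared labels and not a pairing, so the paired values describe the fit only. The cause of these differences was not tested. Where an arm was left with 1 sample, it was assumed to vary like the other groups. Depth limits Lhx1 and Evx1 in mESCs, where the levels lay near the 3-read floor.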

Other observations

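The genes whose profile over the 6 samples was most like that of a member were found by the root mean square difference of log2 values, each centred on its own mean. For Lhx1 they were Aplnr, the apelin receptor of early mesoderm (0.79), Cyp26a1 (0.82) and Cer1 (0.88). For Gsc they were Myrfl (0.37), the caudal-type homeobox gene Cdx2 (0.45) and Efcab1 (0.55). Cdx2 had 595.4 normalized counts in WT EBs and a mean of 23.1 in CTCF-K20R EBs, and 7.75 and 20.8 in the mESCs of those genotypes.

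For Mixl1 the closest were Rgs5 (0.27), Bmper, a BMP-binding protein (0.43), and Cd36 (0.50). For Evx1 they were Foxa2 (0.77), Cfc1, a co-receptor of Nodal (0.81), and its antisense partner Evx1os (0.92). For Hhex they were Ltb (0.16), Ctsc (0.28) and Kcns3 (0.30). For Otx1 they were the Wnt regulator Dact1 (0.13), the glypican Gpc3 (0.19) and the metalloprotease Mmp14 (0.19). The most similar pair of members was Hhex and Otx1, with a difference of 0.90, and the least similar was Lhx1 and Otx2, with 4.03.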
